A study of Rattus norvegicus with 16 samples.

Results

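A group of 10 genes of neutrophil recruitment was examined: the CXC chemokines Cxcl1, Cxcl2, Cxcl3, Cxcl6, Ppbp and Pf4, the growth factor Csf3, and the receptors Cxcr1, Cxcr2 and Csf3r. A gene was included when the RefSeq transcript printed on the array for a probe belonged to it, and where a gene had several such probes the brightest in each tissue was to be used. By this rule 9 of the 10 genes were measured, each by 1 probe, among 45598 rat probes that carried 16678 gene symbols. Cxcl3 had no probe with such a transcript and is described separately.

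The samples were lungs and adipose tissue of male Brown Norway rats, with 1 array per rat and tissue and the same 8 rats in both tissues. The rats were described as 7 weeks old, and the weeks of treatment given next passed before the tissues were taken. The HDM group (5 rats) received house dust mite allergen in phases of 3 weeks each. Sensitization was by a weekly injection under the skin (45 µg, with aluminium hydroxide as adjuvant). Challenge was by doses into the nose (120 µg, 3 per week). The control group (3 rats) received saline with aluminium hydroxide and then saline into the nose by the same schedule, so the adjuvant was shared by both groups. Values are log2 signals relative to the 75th percentile of all rat probes on the same array, and a difference of 1 is a 2-fold difference.

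Neutrophils leave the blood toward gradients of CXC chemokines. The chemokines that act on them, among them Cxcl1, Cxcl2, Cxcl3, Cxcl6 and processed forms of Ppbp, bind Cxcr2 on the neutrophil surface, and Cxcr1 is its close relative. Pf4 is a platelet chemokine of the same family that attracts neutrophils poorly. Csf3 (G-CSF) drives the production and release of neutrophils from the bone marrow through its receptor Csf3r. In the lung, macrophages and epithelial cells are known sources of Cxcl1 and Cxcl2, while Cxcr2 and Csf3r are carried mainly by neutrophils and other myeloid cells.

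The upstream sequences of the genes were read from RefSeq (GRCr8) and were found for 7 of the 9 measured genes. Shown are 120 bases ending just before the transcription start, 5′ to 3′ on the strand of the gene, for 3 ligands and for the pair of receptors whose signal changed most in lung. Capitals mark matches to the NF-kappaB consensus, the site of the factor through which Tnf and Il1b are known to induce these ligands. The ligands lie at chr14:17479322-17479441 (Cxcl1), chr14:17467256-17467375 (Cxcl2) and chr14:17596418-17596537 (Cxcl6), all on the minus strand, and the receptors at chr9:83178525-83178644 (Cxcr2) and chr5:143583100-143583219 (Csf3r), both on the plus strand.
Cxcl1: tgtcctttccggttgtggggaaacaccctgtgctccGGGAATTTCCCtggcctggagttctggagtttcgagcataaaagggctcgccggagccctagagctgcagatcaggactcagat
Cxcl2: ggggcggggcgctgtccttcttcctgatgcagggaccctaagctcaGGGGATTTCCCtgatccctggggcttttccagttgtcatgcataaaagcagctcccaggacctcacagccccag
Cxcl6: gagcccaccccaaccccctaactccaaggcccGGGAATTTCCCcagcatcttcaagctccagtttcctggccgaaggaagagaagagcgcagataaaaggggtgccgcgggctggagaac
Cxcr2: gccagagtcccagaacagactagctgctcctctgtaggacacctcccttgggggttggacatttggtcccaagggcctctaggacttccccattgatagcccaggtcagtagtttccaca
Csf3r: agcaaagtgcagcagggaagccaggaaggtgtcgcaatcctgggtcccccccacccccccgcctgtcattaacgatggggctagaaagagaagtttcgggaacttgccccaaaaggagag

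Each of the 3 ligands held the NF-kappaB consensus, as overlapping matches that begin 84 (Cxcl1), 74 (Cxcl2) and 88 (Cxcl6) bases before the start. On either strand this consensus occurred in the 250 upstream bases of 3.54% of 33469 RefSeq promoters of rat. The same 3 sequences held ATAAAA, the letters of a TATA-like element, between the consensus and the start, and 18.6% of promoters held these letters on either strand. Neither motif was found within 250 bases of Cxcr1, Cxcr2 or Csf3r. Ppbp held ATAAAA and not the NF-kappaB consensus. The letters GAGGAA, the core bound by PU.1 and other ETS factors of myeloid cells, were present upstream of Cxcl2 and Csf3r and in 23.3% of all promoters. A match is a description of the letters in this window only.

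Before the comparisons, the tissue labels were checked against marker genes. The summed signal of 5 lung epithelium markers (log2 scale, as for all sums) lay between 10.40 and 10.69 in the lungs and between 0.41 and 1.23 in adipose tissue. The sum of 5 adipocyte markers lay between 9.38 and 10.39 in adipose tissue and between 0.28 and 3.42 in the lungs, so both labels fit their tissues. In adipose tissue 2 arrays stood apart: the summed signal of 7 epididymis markers was 11.59 in HDM rat 1 and 11.88 in control rat 1, against −2.17 to 4.85 in the other 6 rats. The adipose array of HDM rat 2 had 1224 outlier spots, against 355 to 444 on the other adipose arrays. All arrays of a tissue were on 1 slide, so tissue and slide cannot be told apart, and in both tissues HDM rats 1 to 4 were in one row of the slide while HDM rat 5 and the controls were in the other.

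In lung the receptors Cxcr2 and Csf3r were higher in HDM rats, by 5.49-fold and 4.53-fold, and they were the only ones of the 9 members measured by the rule that were called differentially expressed. A probe was called at a limma adjusted p below 0.05 and a fold change above 1.5, which 0.482% of all probes met as higher and 0.373% as lower. Thus 2 of 9 members were called higher and 0 lower. None of the 5 ligands measured by the rule was called (median log2 fold change 0.58, range 0.04 to 1.16), against 2 of 3 receptors (median 2.18, range −0.44 to 2.46) and a median of 0.00 over all probes. Ligands and receptors were not tested against each other. The SE was wider for Cxcl1 (0.36) and Cxcl2 (0.68) than for Cxcr2 (0.14) and Csf3r (0.15). Cxcl3, a ligand outside the rule, was higher in HDM lungs and is described below. The ligand median was 0.39 over the 4 ligands without Cxcl6, which was at background. After normexp background correction and quantile normalization the differences were 1.77 for Cxcr2 and 1.73 for Csf3r on the log2 scale, and both were called.

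Cxcr2, the receptor through which neutrophils respond to most of these ligands, had lung log2 signals of 0.09, 0.02, 0.20, 0.42 and −0.05 in HDM rats 1 to 5 and of −2.18, −2.46 and −2.32 in control rats 1 to 3. The lowest HDM rat was more than 2 log2 units above the highest control, and the HDM rats differed among themselves by less than 0.5. The difference was 2.46 (SE 0.14, 95% CI 2.14 to 2.77; limma adjusted p = 0.000354). The two-sided exact permutation test gave p = 0.0179, which is the smallest value that 5 rats against 3 allow. A further probe that the study's lung list names as Cxcr2 read between 0.56 and 0.95 in HDM rats and between −1.90 and −1.56 in controls. Because that list was chosen from the same lungs, the probe is given as a description only.

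Csf3r, the receptor for G-CSF, behaved likewise, with lung log2 signals of 0.05, 0.14, 0.24, 0.51 and 0.32 in the HDM rats and −1.82, −1.78 and −2.18 in the controls. The groups did not overlap, and HDM rat 4 was the highest for both receptors. The difference was 2.18 (SE 0.15, 95% CI 1.84 to 2.52; limma adjusted p = 0.00075; two-sided exact permutation p = 0.0179). Within the row of the slide that held HDM rat 5 and the 3 controls, the differences were 2.27 for Cxcr2 and 2.25 for Csf3r, each from 1 HDM rat (limma adjusted p = 0.270 for both). With the slide row as a block, Cxcr2 was still called, and Csf3r had the same difference of 2.25 with a limma adjusted p of 0.0543. The 60-base probe of Csf3r, shown because the adipose result below rests on the same oligonucleotide, is designed as follows.
Csf3r probe: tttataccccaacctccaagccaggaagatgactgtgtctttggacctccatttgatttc

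Cxcr1, the other receptor of the pair, ran the opposite way in lung. Its log2 signals were −0.64, −0.76, −0.51, −0.49 and −0.60 in HDM rats and −0.23, −0.19 and −0.06 in controls. All 5 HDM rats were below all 3 controls, and the spread within each group was small. The difference of −0.44 (SE 0.11, 95% CI −0.69 to −0.19) was not called, with a limma adjusted p of 0.142 and a two-sided exact permutation p of 0.0179. Groups that did not overlap were found for 4.65% of probes with HDM rats higher and for 4.97% with HDM rats lower. Among the 9 members, 3 did not overlap in the higher direction (Cxcr2, Csf3r and Cxcl6, the last at background on every array) and 1 in the lower (Cxcr1).

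**Figure D1:**
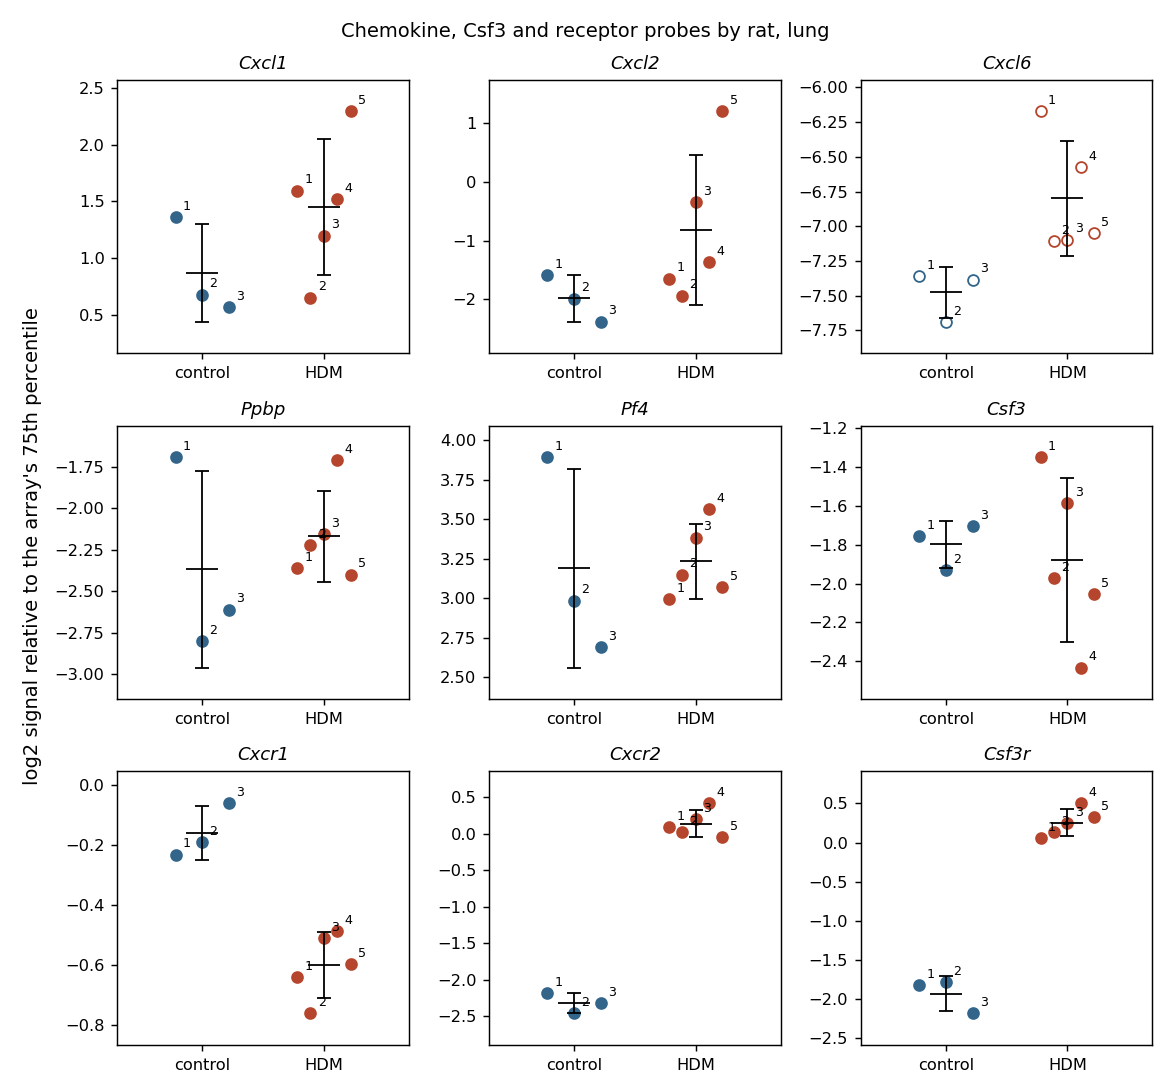
Lung log2 signal relative to the 75th percentile of the array for the 9 measured genes, 1 point per rat (numbers are rat numbers; filled points are well above background, open points are not; bars are the mean ± SD of 3 control and 5 HDM rats; vertical axes differ). Cxcr2 and Csf3r separate the groups by more than the whole spread of either, Cxcr1 lies lower in every HDM rat, and Cxcl1, Cxcl2, Ppbp, Pf4 and Csf3 overlap.

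Among the ligands, Cxcl1 (the rat counterpart of KC, a main neutrophil attractant of rodents) had lung log2 signals of 1.60, 0.65, 1.20, 1.52 and 2.30 in the HDM rats and 1.37, 0.68 and 0.57 in the controls. The groups overlapped, with HDM rat 2 among the lower controls and control rat 1 among the HDM rats. The difference was 0.58 (SE 0.36, 95% CI −0.25 to 1.41; limma adjusted p = 0.718), so neither no change nor a rise of more than 2-fold lies outside the interval. It was 0.37 without HDM rat 5, and 1.43 when HDM rat 5 alone was set against the controls of its slide row (limma adjusted p = 0.416).

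Cxcl2 (MIP-2), a second ligand of Cxcr2 that macrophages release quickly, varied most among the HDM rats. The lung log2 signals were −1.65, −1.93, −0.35, −1.36 and 1.20 in the HDM rats and −1.58, −1.98 and −2.38 in the controls. HDM rat 5 was highest and HDM rat 3 next, while HDM rats 1 and 2 lay within the range of the controls. The difference was 1.16 (SE 0.68, 95% CI −0.42 to 2.74; limma adjusted p = 0.693). It was 0.66 without HDM rat 5 and 3.18 when HDM rat 5 alone was set against the controls of its slide row. HDM rat 5 was also the highest of all 8 rats for Cxcl1.

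Cxcl6 (the LIX-type ligand) did not rise well above background in any rat or tissue. Its lung signals of −7.11 to −6.17 in HDM rats and −7.69 to −7.36 in controls are therefore close to the background, and no fold is given. The limma adjusted p was 0.361.

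Ppbp and Pf4 are stored in platelet granules and are made by megakaryocytes. Pf4 had lung log2 signals of 3.00, 3.15, 3.38, 3.56 and 3.07 in HDM rats and 3.89, 2.98 and 2.69 in controls. Ppbp had −2.36, −2.22, −2.15, −1.71 and −2.40 in HDM rats and −1.69, −2.80 and −2.61 in controls. For both genes control rat 1 was the highest of the 8 rats and HDM rat 4 came next, and the HDM rats lay inside the range of the controls. The differences were 0.04 for Pf4 (95% CI −0.59 to 0.68; limma adjusted p = 1.00) and 0.20 for Ppbp (95% CI −0.43 to 0.83; limma adjusted p = 0.943).

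Csf3, the ligand of Csf3r, had lung log2 signals of −1.35, −1.97, −1.59, −2.43 and −2.06 in HDM rats and −1.76, −1.93 and −1.70 in controls. The HDM rats lay on both sides of the controls, and the difference was −0.08 (SE 0.24, 95% CI −0.63 to 0.47; limma adjusted p = 1.00). The receptor was thus called without a call for its ligand. The ligand and the receptor were not tested against each other.

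Cxcl3, a ligand close to Cxcl2 in sequence, was represented by 2 probes that only the study's list of genes altered in these lungs names, so their separation of the groups was part of how they were found and no test is given. One probe read 0.10, −0.02, 0.62, −0.23 and 0.03 in HDM rats and −1.10, −1.26 and −1.31 in controls. The other read −1.62, −1.57, −0.97, −1.81 and −1.48 in HDM rats and −2.71, −2.87 and −2.76 in controls. Both were higher in every HDM rat, with differences of 1.32 and 1.29. HDM rat 3 was the highest on both. The sequence of the second probe is shown so that its target can be checked, since no transcript was printed for it.
Cxcl3 probe: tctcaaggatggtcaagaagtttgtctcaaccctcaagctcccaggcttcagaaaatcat

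**Figure D2:**
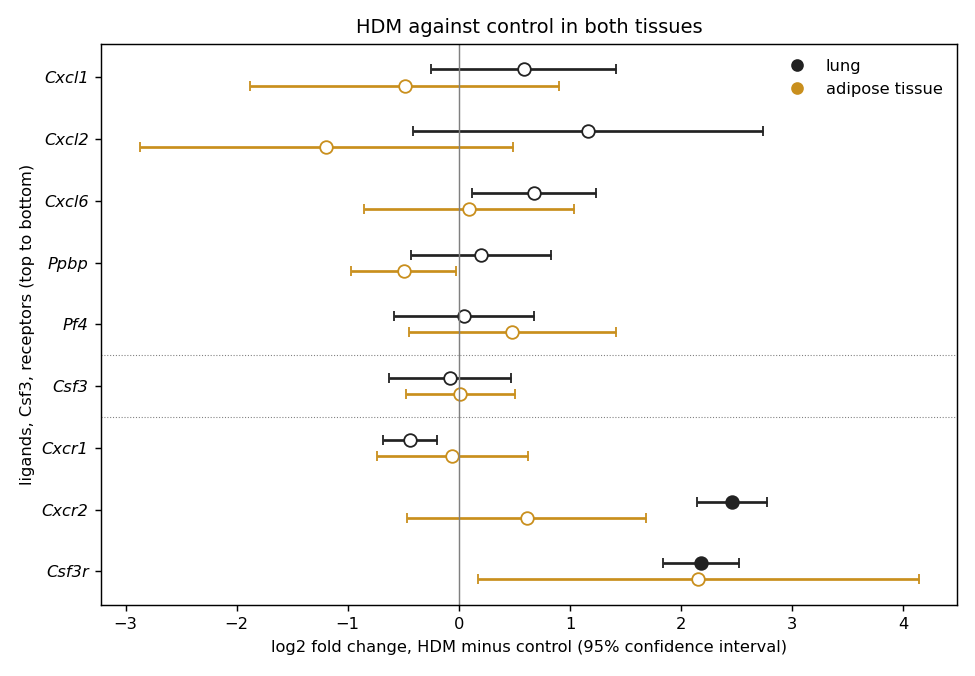
Log2 fold change (HDM minus control) with its 95% confidence interval for each measured gene in lung (black) and adipose tissue (yellow), with ligands above, then Csf3, then receptors; filled points were called, open points were not. Cxcr2 (2.46) and Csf3r (2.18) in lung are the called values. The wide interval of Csf3r in adipose tissue (0.17 to 4.14) gives no size of change, since no control was well above background there. Cxcl6 in both tissues and Cxcr1 in adipose tissue were at background in every rat, and Ppbp in adipose tissue in most, so their values carry no direction.

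The lung profiles most like those of Cxcr2 and Cxcl1 were then listed. Compared were the 12024 genes well above background in the lungs of all HDM rats, whatever their level in controls. A gene could therefore enter through the HDM group alone, where Cxcr2 is high, and the ranking is a description only. Over the 8 lungs, with each gene centered on its own mean, the profiles nearest to Cxcr2 were those of Nlrp12, Pglyrp1, LOC102550425, Csf3r and F2rl2 (root mean square difference 0.181 for Nlrp12 and 0.218 for Csf3r). Nlrp12 is an inhibitory sensor of myeloid cells and Pglyrp1 a peptidoglycan-binding protein of neutrophil granules. The nearest to Cxcl1 were Tnf, Agrp, Ccl3, Pou2f2 and Enpp3, with a difference of 0.136 for Tnf and 0.240 for Ccl3, the macrophage chemokine MIP-1α. For Cxcr2 these differences are about as large as its SD among the HDM rats (0.18), and all 5 genes share its step between the groups. These rankings describe 8 arrays that share their scaling.

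Tnf, the cytokine whose profile was nearest to that of Cxcl1, read 0.82, −0.27, 0.06, 0.37 and 1.40 in the lungs of HDM rats and 0.51, −0.37 and −0.57 in controls. As for Cxcl1, HDM rat 5 was the highest, HDM rat 1 next and control rat 3 the lowest. This shared order restates how Tnf was picked, and a link between the 2 genes was not tested. Its difference of 0.62 was not called (limma adjusted p = 0.752).

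The genes that induce or restrain the ligands were given as a list of 15, of which 13 were measured in lung, 1 called higher and 0 lower (median log2 fold change 0.02). The called gene was Il1b, which induces Cxcl1 and Cxcl2 through NF-kappaB. It read 3.41, 4.04, 4.12, 3.79 and 4.63 in HDM rats and 2.49, 2.45 and 2.18 in controls, without overlap (difference 1.62, SE 0.26, limma adjusted p = 0.0373). Nfkbia, the inhibitor of NF-kappaB, was lower in 5 of 5 HDM rats than in every control, with a difference of −0.86 that missed the threshold (limma adjusted p = 0.0767). Of all probes in lung, 4.65% separated the groups with HDM rats higher, as Il1b did, and 4.97% with HDM rats lower, as Nfkbia did. Il6, Il17a and Il17f did not stand well above background in the lung of any rat.

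Of 18 genes that signal below the receptors, 18 were measured, 2 were called higher in lung and 0 lower (median 0.23). Socs3, the brake on Csf3r signalling through Stat3, rose by 1.18 (SE 0.19, limma adjusted p = 0.0369). Fgr, a Src family kinase of neutrophils and monocytes, rose by 0.99 (SE 0.11, limma adjusted p = 0.00942). The Gαi proteins Gnai2 and Gnai3, Pik3cg and Stat3 were not called. Of 8 other CXC chemokines, such as Cxcl9, Cxcl10 and Cxcl12, 0 were called (median 0.09). Of 8 other CXC and atypical receptors, 6 were measured and 0 called, with the difference of Cxcr3, a receptor of T cells, at −0.54 (limma adjusted p = 0.219).

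Some neutrophil marker genes were higher together with the receptors in lung. Of 15 listed, 14 were measured, 6 were called higher and 0 lower (median 1.16): S100a8, S100a9, Mmp8, Mmp9, Fcnb and Il1r2. S100a8, a subunit of the calprotectin complex of neutrophil cytosol, differed by 4.46 (SE 0.29, limma adjusted p = 0.000736), and Mmp8, the neutrophil collagenase, by 3.95 (SE 0.25, limma adjusted p = 0.000638). Fpr1, a formyl peptide receptor of neutrophils, was lower in all 5 HDM rats than in the controls, as Cxcr1 was (−0.66, limma adjusted p = 0.0877). The same separation was found for 4.97% of all probes in lung. The granule genes Elane and Ltf were at background level in all 8 lungs, and Camp differed by 1.26 without a call (limma adjusted p = 0.134).

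The summed signal of the 14 neutrophil markers was 7.98, 7.53, 8.34, 7.76 and 7.41 in the lungs of HDM rats and 5.71, 4.94 and 4.75 in controls. S100a9 made up 39.9% of it. The sum separated the groups as Cxcr2 and Csf3r did, with HDM rat 3 as its highest rat. HDM rat 4 was highest for Csf3r and the Cxcr2 probe of the rule, and HDM rat 3 for the further Cxcr2 probe. In whole tissue more neutrophils and more RNA of these genes per cell cannot be told apart, and the part of neutrophil number in the receptor values was not tested.

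Platelet markers were compared with Pf4 and Ppbp in the same way. Of 9 listed, 5 were measured in lung and 0 were called. Their summed signal, 85.2% of it from Clec1b (CLEC-2 of the platelet surface), was 2.12, 2.16, 2.48, 2.54 and 2.10 in HDM rats and 2.84, 1.88 and 1.67 in controls. Control rat 1 was highest and control rat 3 lowest, as for Pf4. The part of platelet content in these values was not tested.

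**Figure D3:**
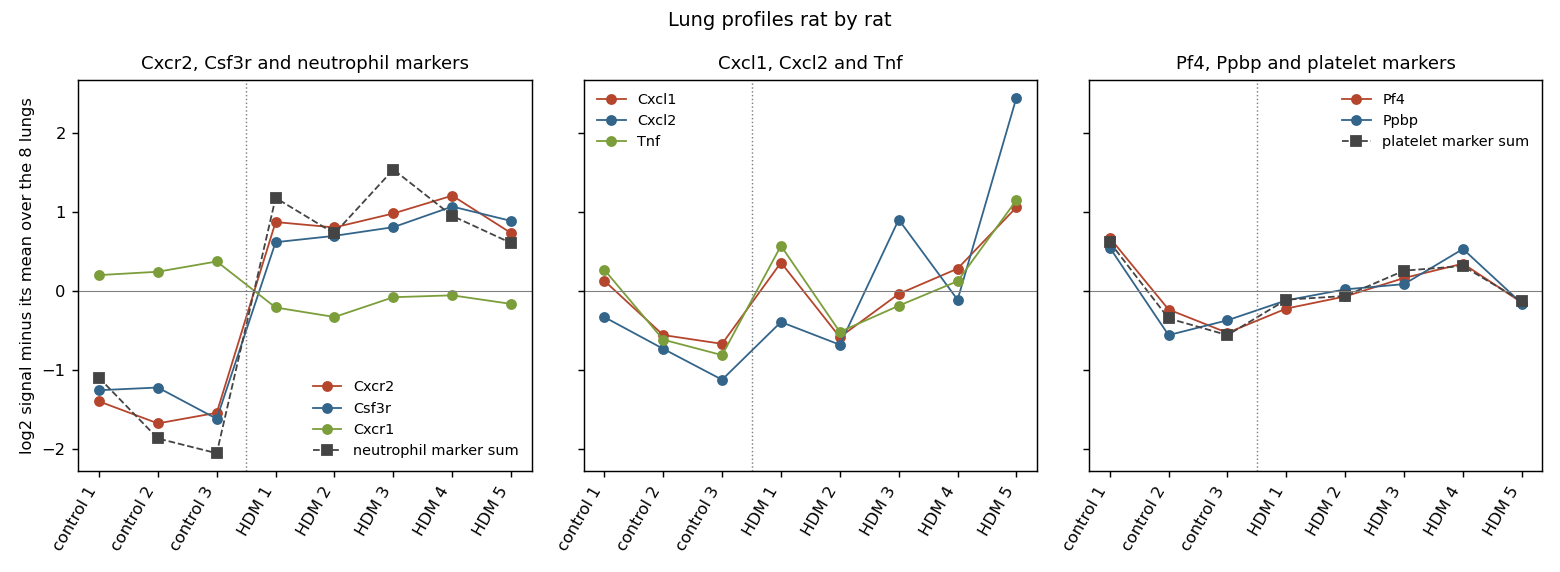
Log2 signal in each lung minus its mean over the 8 lungs (vertical axis) for control rats 1 to 3 and HDM rats 1 to 5; lines join the rats only to guide the eye, and squares on dashed lines are summed markers. Cxcr2, Csf3r and the neutrophil sum step up between the groups while Cxcr1 steps down. Cxcl1 peaks in HDM rat 5, as does Tnf, which was picked as its nearest profile. In these lungs Pf4, Ppbp and the platelet sum peak in control rat 1.

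In adipose tissue 0 of the 9 members were called, as was 0% of all probes. The smallest limma adjusted p of any probe was 0.0853, with 4515 probes below 0.05 before adjustment. The median log2 fold change was −0.49 for the 5 ligands and 0.61 for the 3 receptors, against −0.15 over all probes. These medians include Cxcl6 and Cxcr1, which were at background in all 8 rats, and Csf3r, which was at background in all 3 controls. Scaling to the median instead of the 75th percentile moved that value for all probes to 0.14, so small changes in this tissue have no settled sign. Groups that did not overlap were found for 1.54% of probes with HDM rats higher and 4.72% with HDM rats lower, and for 1 member in each direction, Csf3r and Ppbp. Both rest on background readings, Csf3r in all 3 controls and Ppbp in all but 1 rat of each group.

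Csf3r in adipose tissue read −4.22, −0.85, −3.91, −3.89 and −4.46 in HDM rats and −5.01, −5.07 and −6.78 in controls. It was well above background in HDM rats 1 to 4, which are the rats of one slide row, and in no rat of the other row. All HDM rats were above the controls, and HDM rat 2 was far above the others. Set against the lowest signal well above background on each control array, the HDM mean (−3.46, against a measured −5.62 in controls) was 1.53-fold higher. This is no strict lower bound, because the mean includes HDM rat 5 (−4.46), which was itself not well above background. The value of 1.53 rested on HDM rat 2, without which it was 0.969 and gave no fold. The fitted difference of 2.16 (SE 0.86) was not called (limma adjusted p = 0.476, two-sided exact permutation p = 0.0357). Because every control was at background, the fitted differences give no size of change. The fitted value was 1.5 without HDM rat 2 (limma adjusted p = 0.354), whose array had the excess of outlier spots. It was 0.40 after normexp and quantile normalization (limma adjusted p = 0.822). Within the slide row of HDM rat 5, where no rat was well above background, it was 1.16. The part of that array and of the slide row in the value was not tested.

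Cxcr2 was well above background on every adipose array, with log2 signals of −1.0, −0.62, −0.33, −1.09 and −0.74 in HDM rats and −2.57, −0.28 and −1.25 in controls. The controls spread over more than 2 units and enclosed the HDM rats. The difference was 0.61 (SE 0.47, 95% CI −0.46 to 1.69; limma adjusted p = 0.735), and it ranged from 0.01 without control rat 1, the lowest rat and one of the arrays with epididymis markers, to 1.15 without control rat 2, the highest (limma adjusted p = 0.385). The further Cxcr2 probe of the study's lung list, whose adipose values had no part in its choice, lay between −1.50 and −0.21 in HDM rats and between −1.99 and −0.50 in controls (difference 0.29, SE 0.40, limma adjusted p = 0.820). Of the Cxcl3 probes, one was at background in adipose tissue of all 8 rats and the other rose well above it in HDM rat 1 only. Cxcr1 did not exceed the background clearly in adipose tissue of any rat, although it did in all 8 lungs.

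None of the 5 ligands was called in adipose tissue, and their log2 fold changes ran from −1.19 to 0.48. Cxcl2 read −4.99, −4.08, −2.07, −2.19 and −2.60 in HDM rats and −1.54, −2.81 and −1.63 in controls. HDM rats 1 and 2 were the lowest and not well above background, and the groups overlapped (difference −1.19, SE 0.73, limma adjusted p = 0.653). Without HDM rat 1 and control rat 1, which carried epididymis markers, the difference was −0.51 (limma adjusted p = 0.996).

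Cxcl1 read −3.11, −1.35, −0.10, −0.79 and −1.45 in adipose tissue of HDM rats and −0.97, −1.14 and −0.52 in controls, and HDM rat 1 was again the lowest. The difference was −0.49 (limma adjusted p = 0.820), and −0.09 without HDM rat 1 and control rat 1. Ppbp, at −4.97 to −4.24 in HDM rats and −4.21 to −3.94 in controls, was well above background in only 1 rat of each group. Its fitted difference was −0.50 (limma adjusted p = 0.482, two-sided exact permutation p = 0.0357) and 0.01 after quantile normalization. These values rest mostly on background readings, so their sign carries no direction.

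Pf4 and Csf3 were well above background in adipose tissue of all 8 rats. Pf4 lay between 2.48 and 3.83 in HDM rats and between 2.11 and 3.49 in controls, with HDM rat 1 and control rat 1 the lowest of their groups (limma adjusted p = 0.767). The platelet sum in this tissue ran from −0.55 (HDM rat 5) to 0.73 (HDM rat 2), so its order of rats was not that of Pf4. A sum of macrophage markers ran from 2.71 in control rat 1 to 4.91 in HDM rat 4, the lowest and highest rats for Pf4. It was picked after its values were seen, and the part of either cell type in Pf4 was not tested. Csf3 lay between −1.11 and −0.66 in HDM rats and between −1.28 and −0.49 in controls, so that the controls enclosed the HDM rats (limma adjusted p = 0.988).

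**Figure D4:**
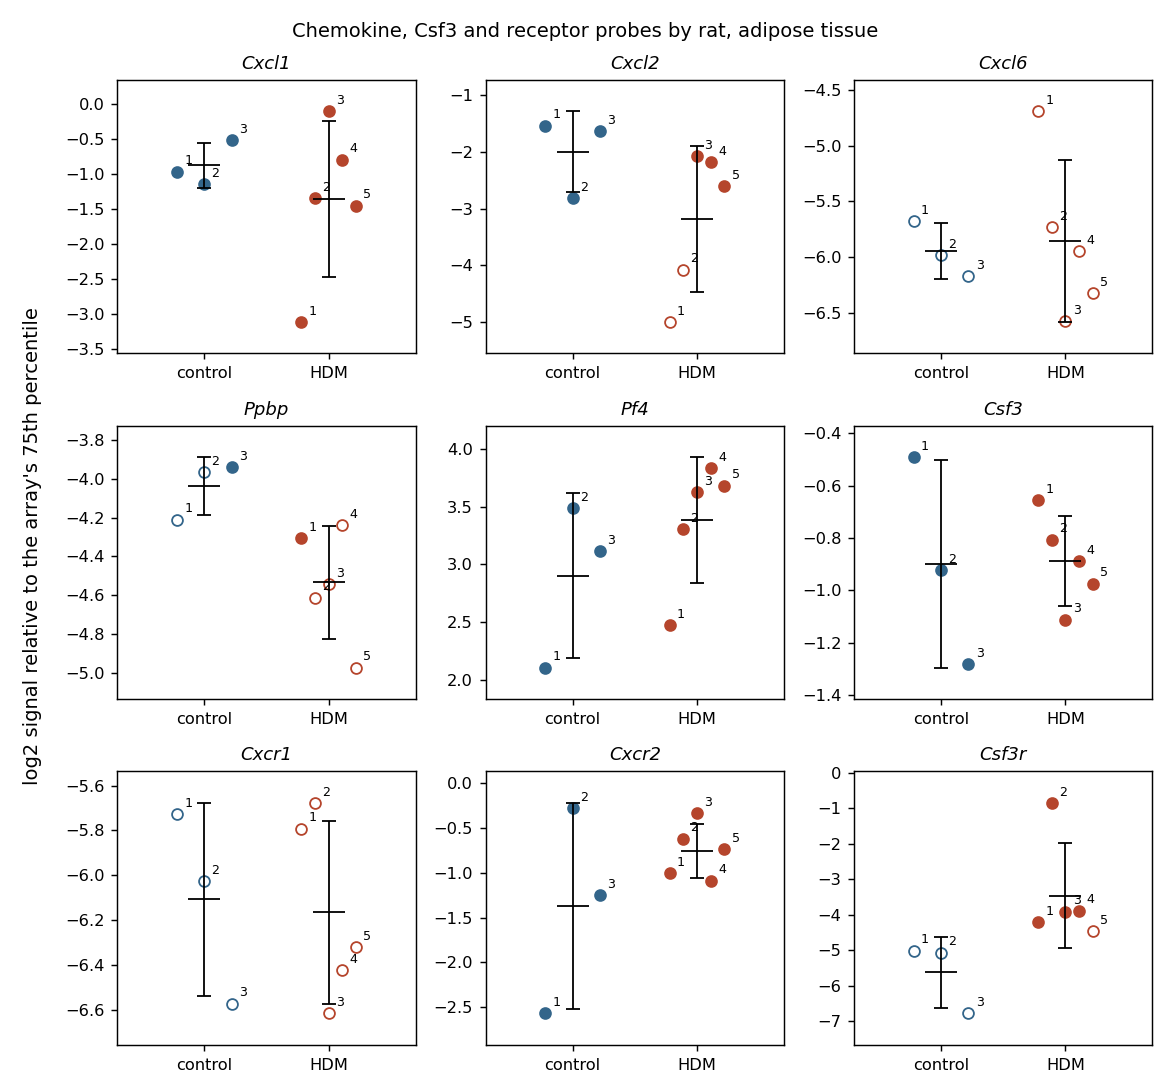
Adipose tissue log2 signal relative to the 75th percentile of the array for the 9 measured genes, drawn as for lung (points are rats with their numbers, open points are not well above background, bars are the mean ± SD of 3 control and 5 HDM rats; vertical axes differ). Csf3r in HDM rat 2 lies at −0.85 while the other HDM rats lie at or below −3.89, and Cxcl6 and Cxcr1 have open points only.

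Neutrophil markers in adipose tissue were led by Lcn2, which made up 93.7% of the sum. Lcn2 was highest in HDM rat 1 (7.33) and control rat 1 (8.69), the rats with epididymis markers. The whole sum was 7.39, 3.14, 3.71, 3.49 and 3.19 in HDM rats and 8.70, 2.16 and 4.22 in controls, so the groups overlapped. Without Lcn2 it was 2.07 to 3.37 in HDM rats and 0.77 to 1.41 in controls. Of the 14 markers measured 0 were called in this tissue, 7 had log2 fold changes above 0 and 7 below, and the median was 0.17. The values ran from −1.89 for Lcn2 and −1.44 for Ltf, a granule protein, to 3.83 for S100a9 (limma adjusted p = 0.0853) and 4.66 for S100a8 (limma adjusted p = 0.154). HDM rat 2, which stood out for Csf3r, was at 0.92 for S100a8, between the 0.13 and 2.02 of the lowest and highest HDM rats.

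Whether the change in lung differed from that in adipose tissue was tested by subtracting the adipose value of each rat from its lung value. By limma 0.00219% of probes passed an adjusted p below 0.05, and 0 of the 9 members did. Before adjustment 3531 probes lay below 0.05. For Cxcr2 the lung signal exceeded the adipose signal by 1.09, 0.64, 0.53, 1.51 and 0.68 in HDM rats and by 0.39, −2.18 and −1.07 in controls. All 5 HDM rats were above all controls, but the share of all probes that separate in this way is not given here. The fitted change was greater in lung by 1.85, which did not pass the threshold (SE 0.54, 95% CI 0.60 to 3.09, limma adjusted p = 0.509, two-sided exact permutation p = 0.0179). This difference was 1.23 to 2.52 without 1 rat and 1.49 to 2.23 under other settings.

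Cxcl2 showed a difference between tissues of 2.35 (SE 0.71, 95% CI 0.72 to 3.98; limma adjusted p = 0.513; two-sided exact permutation p = 0.0714). Here the lung exceeded adipose tissue by 3.35, 2.14, 1.72, 0.82 and 3.80 in HDM rats and by −0.04, 0.83 and −0.74 in controls. HDM rat 4 fell just below control rat 2, and the other 4 HDM rats were above all controls. The adipose signals of HDM rats 1 and 2 were not well above background, so the values 3.35 and 2.14, and the mean and interval that include them, rest partly on background readings. Other settings gave differences of 1.18 to 3.78. For Csf3r no comparison of the tissues is drawn, because its adipose signal was at background in all controls and its adipose HDM mean was carried by HDM rat 2.

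The order of the 4 groups differed between members, with the reservation that each tissue was scaled on its own slide. Errors are SD over 5 HDM or 3 control rats. Cxcr2 was highest in HDM lung (0.14 ± 0.18), then in adipose tissue of HDM rats (−0.76 ± 0.30) and of controls (−1.37 ± 1.15), and lowest in control lung (−2.32 ± 0.14). Only HDM lung lay outside the range of its neighbour in that order. Before scaling, Cxcr2 signals were 77.4 to 85.5 in control lung and 18.7 to 115.0 in control adipose tissue. These control groups overlapped before and after scaling, so which of them is lowest is not settled. Csf3r was higher in HDM lung (0.25 ± 0.17) than in control lung (−1.93 ± 0.22). Its adipose groups are not placed in the order, since no adipose control was well above background.

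Cxcl1, Ppbp and Cxcr1 were higher in every lung than in any adipose sample. Csf3 was the reverse, with adipose values of −0.89 ± 0.17 for HDM and −0.90 ± 0.40 for control rats, all above those of every lung. This order depends on the scaling, since the signals of Csf3 before scaling overlapped (83.7 to 154.5 in lung, 73.8 to 137.3 in adipose tissue). For Cxcl2 and Pf4 each of the 4 groups overlapped with its neighbours in the order.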

How the data were processed

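Total RNA (50 ng per sample) of lung and adipose tissue was hybridized to one-color Agilent rat arrays, 1 array per rat and tissue. The authors extracted spot intensities on a linear scale with Agilent Feature Extraction 12.0.3.1, with background subtracted and no scaling between arrays, and deposited these files. A table of log2 values, which the authors made in GeneSpring and deposited, served as an alternative; 39 of its cells held a month and a number and were treated as missing.

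From the intensities, control and outlier spots were removed, spots of a probe were averaged as log2 values, and the 75th percentile of each array was subtracted. A probe counted as well above background on an array when more than 0.5 of its spots carried that mark. Symbols came from RefSeq accessions through the GRCr8 gene table. Groups were compared within each tissue by limma 3.58.1 in R 4.3.3 (data.table version 1.17.8, jsonlite 2.0.0), two-sided, with Benjamini–Hochberg adjustment over all 45598 probes. Single values were also compared by exact permutation over the 56 splits of 5 and 3 rats. The methods' t-test, other scalings, filters, slide-row and replicate blocks and fits without each rat were alternatives, and the fits were tested on simulated data. Plots were made in Python 3.11.15 (matplotlib 3.10.9).

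The members and gene lists were chosen with earlier results of these data known. All members are named. From each list at most 4 genes were to be named, those called with the largest change. Where none was called, those with the largest lung change were to be named. The lists of other CXC chemokines and receptors depart from this. Cxcl9, Cxcl12 and Cxcr3 are named there, although Cxcl11 (0.55), Cxcl13 (−0.45) and Ackr2 (−0.74) changed more within their lists. In the neutrophil list further called genes, Elane, Ltf, Camp and Fpr1 are named beside that rule, as are Nfkbia, Tnf, Il6, Il17a, Il17f, Gnai2, Gnai3, Pik3cg, Stat3, Clec1b, Lcn2 and some other list genes, chosen after their values were seen. For Cxcr2 and Cxcl1 the 5 most similar lung profiles are named. Replicates were separate rats, and the number of arrays limits the precision. Lung and adipose arrays of a rat were paired through the labels, and the correlation of their deviations from the group means lay between −0.10 and 0.11.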

Additional observations from a re-analysis of the deposited data

Results flagged for a closer look

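Csf3r in adipose tissue of the HDM rats was the only one of 24 sets of 5 HDM values (member probes in both tissues) in which 1 rat lay beyond Dixon's limit for 5 samples. HDM rat 2 read −0.85 on the log2 scale, whereas the other 4 HDM rats read −4.46 to −3.89. Chance alone gives such a value in about 1 of 20 sets. The array of this rat had 1224 outlier spots, against 355 to 444 on the other adipose arrays, and its share in the value was not tested.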

How the results depend on the processing

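Across alternatives, 500 of 554 values of single members kept their direction and their side of the threshold, 49 reversed and 5 lost a call. The lost calls were all in lung: Csf3r with the slide row as a block (2.25, limma adjusted p = 0.0543), both receptors within slide row 2 alone (Cxcr2 2.27 and Csf3r 2.25, limma adjusted p = 0.270), where 1 HDM rat is assumed to vary like the controls, and both under the replicate block (Cxcr2 2.42, limma adjusted p = 0.195; Csf3r 2.07, limma adjusted p = 0.310). So the called members numbered 1, 0 and 0 under these settings, and 2 under all others, each fit without 1 rat included (Cxcr2 2.39 to 2.53, Csf3r 2.05 to 2.25). The replicate block uses only HDM and control rats of shared number; same-numbered rats did not deviate together in lung (r = −0.06, −0.08 and 0.05), nor in every pair in adipose tissue (0.59, 0.14 and 0.10), so the numbers were taken as names only.

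The count of called probes in lung, 390, was 1329 with p-values adjusted over probes past 1.5-fold only, 598 without dim probes, 737 with array weights, 25 with the slide row block, 0 within slide row 2, 0 with the replicate block and 100 to 333 without 1 rat (100 without control rat 2). In adipose tissue, 0 became 28 with p-values adjusted past 1.5-fold only, 7 with quantile normalization, 3 with median scaling, 1 with normexp, 15 with array weights and 1 with the slide row block, and stayed 0 without each rat. For the lung change against the adipose change, 1 became 20 without the pairing by rat (no replicate block), 5 with the methods' t-test, 2 with median scaling, 4 with the percentile over probes well above background, 37 with normexp, 5 with array weights and 0 to 1 without 1 rat. No member was called in the last 2 comparisons under any alternative. The causes were not tested.

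All reversed signs concerned uncalled differences, most of them near 0. The exceptions were the tissue difference of Pf4 (−0.44) and the fitted value of Ppbp in adipose tissue (−0.50). Ppbp was well above background there in only 1 rat of each group, so the sign of its fitted value carries no direction. In lung, Pf4 was −0.0079 with median scaling, −0.084 with array weights, −0.12 with the slide row block and within row 2, −0.012 with the replicate block and −0.21 to 0.40 without 1 rat; Ppbp was −0.032 with the row block and within row 2 and −0.017 to 0.54 without 1 rat; Csf3 was 0.16 with the replicate block and −0.21 to 0.056 without 1 rat. In adipose tissue, Ppbp was 0.0074 with quantile normalization and 0.024 with normexp. Csf3 was −0.041 with the percentile over probes well above background, −0.010 with normexp, −0.076 with the row block and within row 2, and −0.18 to 0.22 without 1 rat. For the difference between tissues, Csf3 was −0.28 to 0.15 and Pf4 −0.83 to 0.31 without 1 rat.

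Other fitted values rest on background readings, so they measure no change and their signs carry no direction; they are listed only as fitted. For Cxcr1 in adipose tissue they were 0.31, 0.24, 0.15, 0.079 and 0.039 with quantile normalization, median scaling, normexp, the replicate block and without the rats with epididymis markers, and −0.29 to 0.13 without 1 rat. For Cxcl6 in adipose tissue they were −0.092 with array weights, −0.38 with the row block and within row 2, −0.065 without the rats with epididymis markers, and −0.20 to 0.27 without 1 rat. For Csf3r between tissues they were −0.27, −0.32 and −0.0082 with quantile normalization, median scaling and array weights and −0.24 to 0.71 without 1 rat.

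The fit without the arrays carrying epididymis markers was chosen after seeing the data. A second probe per gene could not be tried, since each member had 1 probe by the rule. With 3 controls, all from 1 slide row, exact tests cannot go below p = 0.0179, and slide row and treatment overlap for HDM rats 1 to 4.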

Other observations

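Eosinophil markers in lung were compared beside the neutrophil genes. Of 6 listed and measured, 0 were called. Prg3, an eosinophil granule protein, was well above background in 5 HDM lungs and 0 control lungs, and its HDM mean was at least 2.33-fold higher, set against the lowest signal well above background on each control array (limma adjusted p = 0.0581). Prg2, the major basic protein, differed by 1.74 (SE 0.44, limma adjusted p = 0.158). For Prg2 and Prg3 all 5 HDM rats exceeded the 3 controls, as was found for 4.65% of all probes in lung. The summed eosinophil signal was 0.87, 1.73, 1.10, 1.72 and 1.13 in HDM rats and 0.62, 0.21 and −0.14 in controls, without overlap, and HDM rats 2 and 4 were the highest. Il5ra, the receptor chain for Il5, did not rise above background in any lung. Macrophage markers (6 measured, 0 called, median log2 fold change 0.01) summed to 3.42 to 3.67 in HDM lungs and 3.21 to 3.36 in control lungs.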
